A study of Mus musculus with 12 samples.

Results

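The regions described here are stretches of open chromatin that were listed in vehicle-treated mouse sensory ganglia and were at least 600 bp wide. They overlapped no region listed in ganglia of mice given MS275. They were chosen from 2 deposited ATAC-seq peak lists by merging overlapping entries within each list and keeping merged vehicle regions of at least 600 bp on autosomes that overlapped no merged MS275 region by even 1 bp. The rule left 12165 of the 49543 autosomal vehicle regions of at least 600 bp, and of the 339694 merged regions in both lists. They are called vehicle-only wide regions below. The other 37378 vehicle regions of this width overlapped an MS275 region and are called shared wide regions, and 6944 autosomal MS275 regions of at least 600 bp overlapped no vehicle region. A further 3 vehicle regions that met the width and overlap conditions lay on chromosome X and are not counted.

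The tissue came from C57BL/6 mice of 6 to 8 weeks of age and consisted of dorsal root ganglia L4 to L6, collected 24 h after axotomy of the spinal dorsal columns. One group received MS275 at 12 mg/kg into the peritoneum and the other its vehicle of Tween80, PEG300 and DMSO, with 1 injection at injury and 1 at 2 h before collection, so all animals were injured and injected. ATAC-seq covered 3 mice given MS275 and 3 given vehicle, but 1 combined peak list per treatment was analysed, so the regions have no replicates and no test of their presence was possible. RNA-seq covered 3 MS275 and 3 vehicle libraries, each pooled from 2 mice, with 34992533 to 60370523 reads assigned to genes.

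ATAC-seq inserts adapters into DNA that a transposase can reach, so a listed region is one where reads piled up above their surroundings. Regions over transcription starts are usually the strongest in such data, and weaker regions in introns and between genes often hold enhancers. MS275, also called entinostat, inhibits class I histone deacetylases, enzymes that take acetyl groups off histones and are parts of co-repressor complexes. In a dorsal root ganglion the somata of sensory neurons sit among satellite glia, Schwann cells, blood vessels and macrophages. The 18 markers of sensory neurons summed to 26556, 27066 and 28732 CPM (read counts scaled to library size) in MS275 libraries and 25034, 25948 and 26137 CPM in vehicle libraries, with no marker at 0 in every library. In such mixed tissue, fewer cells of a type and less RNA per cell cannot be told apart.

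A transcription start in RefSeq lay under 258 of the vehicle-only wide regions, and the windows around 5 of those starts show the kind of DNA they sat on. Each is the 300-base RefSeq window of GRCm38.p6, which mm10 also represents, from 250 bases before the start to 50 after it, printed on the gene's strand with every CG pair in capitals. The first 5 genes had a start under a vehicle-only wide region. Scn10a encodes the voltage-gated sodium channel Nav1.8 of nociceptors, and Pvalb encodes parvalbumin, a calcium-binding protein of large proprioceptive neurons. Ckm encodes muscle creatine kinase, Casq1 encodes the calcium store protein calsequestrin of fast muscle, and Trpm3 encodes a heat-sensing cation channel. Slc25a18, which encodes a mitochondrial glutamate carrier, is the contrast, since its start lay under a shared wide region. With 49.3% G or C and 4 CG pairs its window is poorer in both than the median of windows under shared wide regions, given after the sequences.
Scn10a (minus strand, chr9:119718983-119719282): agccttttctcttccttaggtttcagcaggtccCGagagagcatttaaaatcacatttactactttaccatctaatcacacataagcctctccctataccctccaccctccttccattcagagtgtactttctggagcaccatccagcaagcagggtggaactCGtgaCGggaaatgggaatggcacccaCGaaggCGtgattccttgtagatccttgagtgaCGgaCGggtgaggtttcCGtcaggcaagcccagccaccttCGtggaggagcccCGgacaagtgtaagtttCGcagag
Pvalb (minus strand, chr15:78204188-78204487): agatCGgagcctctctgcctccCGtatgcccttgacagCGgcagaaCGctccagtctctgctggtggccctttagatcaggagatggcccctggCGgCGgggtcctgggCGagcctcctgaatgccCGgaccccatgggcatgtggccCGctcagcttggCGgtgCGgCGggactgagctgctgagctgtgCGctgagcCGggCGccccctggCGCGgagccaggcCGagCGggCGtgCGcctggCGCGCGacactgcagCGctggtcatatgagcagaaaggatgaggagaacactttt
Ckm (plus strand, chr7:19410844-19411143): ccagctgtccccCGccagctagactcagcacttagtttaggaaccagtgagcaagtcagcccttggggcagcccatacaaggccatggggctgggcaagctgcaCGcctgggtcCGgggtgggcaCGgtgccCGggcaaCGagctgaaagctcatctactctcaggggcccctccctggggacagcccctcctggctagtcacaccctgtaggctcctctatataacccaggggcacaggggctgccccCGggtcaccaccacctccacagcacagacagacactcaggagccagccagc
Casq1 (minus strand, chr1:172219846-172220145): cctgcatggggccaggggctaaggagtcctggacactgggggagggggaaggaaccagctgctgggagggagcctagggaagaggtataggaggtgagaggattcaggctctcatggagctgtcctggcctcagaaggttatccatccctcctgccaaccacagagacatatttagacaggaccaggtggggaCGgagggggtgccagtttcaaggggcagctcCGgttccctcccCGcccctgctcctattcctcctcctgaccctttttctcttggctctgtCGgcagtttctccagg
Trpm3 (plus strand, chr19:22447958-22448257): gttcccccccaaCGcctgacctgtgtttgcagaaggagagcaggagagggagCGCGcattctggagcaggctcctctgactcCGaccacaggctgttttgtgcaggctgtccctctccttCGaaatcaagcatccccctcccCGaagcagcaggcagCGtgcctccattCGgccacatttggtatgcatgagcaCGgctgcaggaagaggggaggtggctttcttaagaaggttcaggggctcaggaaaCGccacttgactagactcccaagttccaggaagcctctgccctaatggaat
Slc25a18 (plus strand, chr6:120773518-120773817): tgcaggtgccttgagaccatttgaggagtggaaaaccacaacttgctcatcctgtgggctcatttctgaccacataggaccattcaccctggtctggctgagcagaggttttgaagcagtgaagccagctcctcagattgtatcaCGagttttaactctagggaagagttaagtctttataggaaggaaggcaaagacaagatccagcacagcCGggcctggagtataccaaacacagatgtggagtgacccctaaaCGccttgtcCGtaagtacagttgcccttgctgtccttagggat

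The 5 windows under vehicle-only wide regions differed widely in composition. The Pvalb window was 67.7% G or C with 25 CG pairs, the Ckm window 64.7% with 7, the Casq1 window 60.3% with 4, the Trpm3 window 58% with 10 and the Scn10a window 51.7% with 11. The Slc25a18 window was 49.3% G or C with 4 CG pairs. The starts shown for Pvalb and Trpm3 lie inside the annotated genes, and are thus alternative starts, while those of Scn10a, Ckm and Casq1 lie at or near the gene's end. The region over the Scn10a start spanned chr9:119718722-119719419, with 1 summit, a fold enrichment of 2.82 and a -log10 q of 21.2 in the authors' list. Regions over the Pvalb, Ckm, Casq1 and Trpm3 starts were 693, 966, 1213 and 846 bp wide, with fold enrichments of 1.73, 1.56, 1.72 and 1.78. Fold enrichment, p and q are the authors' values for each peak, and serve here only to describe regions within a list.

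Starts under vehicle-only wide regions had fewer CG pairs than those under shared wide regions, and about as many as all RefSeq starts. They comprised 296 start windows of 273 genes, with a median of 55% G or C and 6 CG pairs. The 161 windows under MS275-only wide regions had medians of 55.3% and 5 CG pairs. The 12882 windows under shared wide regions had medians of 62.7% and 22 CG pairs, and all 31365 RefSeq windows medians of 53% and 7. The vehicle-only windows thus lay nearer to all RefSeq windows than to those under shared wide regions.

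Short motifs were searched on both strands of the same windows, as exact letters and without regard to overlaps between motifs. The GC box GGGCGG, the letters that factors of the Sp family bind, stood in 25% of windows under vehicle-only wide regions, 31.1% under MS275-only wide regions, 68.5% under shared wide regions and 36% of all windows. The palindromic NRF1 motif stood in 1.35%, 3.73%, 10.3% and 4.66% in the same order, and the ETS motif CCGGAAGT in 2.7%, 0%, 7.85% and 3.95%. The E-box CAGCTG, a form bound by basic helix-loop-helix proteins, stood in 23.6% of vehicle-only, 23.6% of MS275-only and 15.4% of shared windows, against 16.3% of all windows. The shares for the AP-1 motif TGANTCA were 7.77%, 7.45%, 4.11% and 7.85%, and for the TATA box TATAAA 13.9%, 11.2%, 5.3% and 13.6%. The CCAAT box stood in 31.1%, 34.8%, 36% and 37.3%, and the CRE TGACGTCA was rare in each set, at 1.01%, 0.621%, 3.27% and 1.83%. Among the printed windows, Ckm held CAGCTG at -249 and Casq1 at -195 from the start, and Casq1 held the reverse of the GC box at -15. No test was made of these shares, and a match is only a match of letters.

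Vehicle-only wide regions were narrower and weaker than the shared wide regions of the same list, which follows in part from how they were chosen. Their width ran from 600 to 2261 bp with a median of 719 bp, against a median of 889 bp in shared wide regions. Their median fold enrichment was 1.66, with a range of 1.24 to 3.09, against 2.05 in shared wide regions. Their median -log10 q was 2.47, with a range of 0.494 to 23.8, against 6.85. A -log10 q of at least 10 was reached by 116 of them (0.954%), against 40.1% of shared wide regions. Most had more than 1 summit: 25.5% had a single summit and 4.3% had 4 or more. Together they covered 9.34 Mb, against 37 Mb in shared wide regions.

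The share of vehicle regions without a partner declined steadily with width and strength. It was 40% among vehicle regions of 600 to 700 bp, 11.4% at 1000 to 1200 bp and 0.156% at 2000 bp or more. Among wide vehicle regions it was 59.8% at a -log10 q under 1, 31.7% at 3 to 5, 2.21% at 10 to 20 and 0% of 5546 regions at 50 or more. In the MS275 list the share also fell with width, from 30.4% for 600 to 700 bp to 0% of 383 regions at 2000 bp or more. By strength it fell from 49.9% at a -log10 q under 1 to 0.0242% at 20 to 50. At 50 or more it was 0.0463%, or 2 of 4324 wide MS275 regions. At the width threshold, 717 vehicle-only regions of 600 to 610 bp had a median fold of 1.62 and a median -log10 q of 2.26. The 683 vehicle-only regions that fell short of it by at most 10 bp had medians of 1.64 and 2.26.

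**Figure D1:**
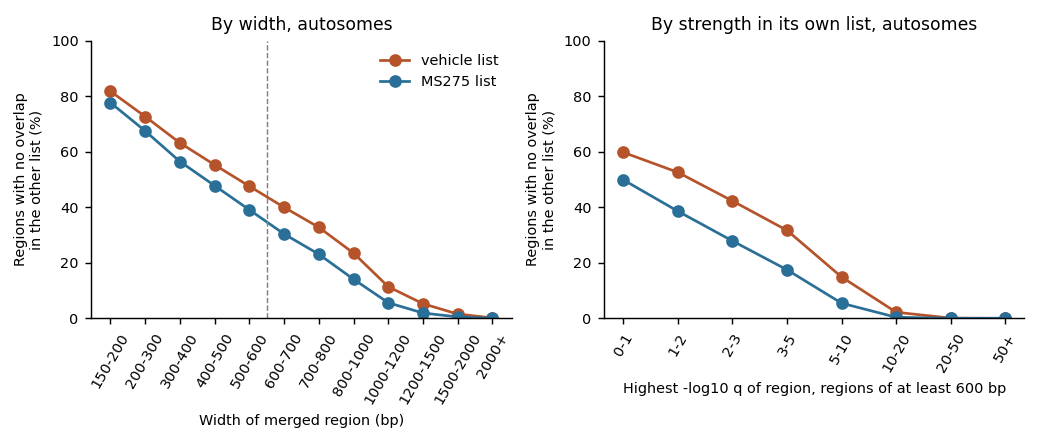
The share of autosomal regions with no overlap in the other list (%), by width of the merged region in bp on the left (the dashed line marks 600 bp) and, for regions of at least 600 bp, by the highest -log10 q of the region in its own list on the right. Points are bins, joined for the vehicle list and the MS275 list. In the vehicle list the share runs from 59.8% of the weakest wide regions to 0% of the strongest.

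Many of these regions lay close to an MS275 region without touching it. The median gap to the nearest MS275 region was 2210 bp, 18.2% lay within 500 bp, 30.2% within 1000 bp and 89.5% within 10 kb. MS275-only wide regions had a median gap of 2066 bp to the nearest vehicle region. The widest member, of 2261 bp at chr10:89076307-89078567 inside Ano4, which encodes a membrane protein of the anoctamin family, lay 282 bp from an MS275 region. The region over the hairpin of Mir137 lay 99 bp from one. The region at Phf17 lay 84 bp from one.

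Of the 116 vehicle-only wide regions with a -log10 q of at least 10, 69 (59.5%) lay in a protein-coding gene body, against 66.3% of all vehicle-only wide regions. By -log10 q the first was a 723 bp region at chr14:27876063-27876785, inside Erc2, which encodes a scaffold protein of the presynaptic active zone, and over the start of the predicted gene Gm34996. Its fold enrichment was 3.09 and its -log10 q 23.8, both the highest of the set. The second lay 755 bp from Gm8504, a predicted gene, with a fold of 3.07 and a -log10 q of 21.9. The third was the region over the Scn10a start. Others among the 10 strongest by fold or by -log10 q lay in Cs (citrate synthase), Chrm3 (a muscarinic acetylcholine receptor), Tshr (the thyrotropin receptor), Smim31, Synpo2 (an actin-binding protein), Ptpro (a receptor tyrosine phosphatase) and Atcay (caytaxin, a neuronal protein). Of the 111 regions with a -log10 q of at least 10 on chromosomes with a start table, 7 covered a start, and their median gap to an MS275 region, over all 116, was 1902 bp.

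The widest vehicle-only wide regions were not the strongest. After the one in Ano4, the next lay 13783 bp from Gm30536, with a width of 1945 bp and a fold of 1.73, and the third just past the end of Zc3h18, an RNA-processing gene, with 1926 bp and a fold of 1.67. Among the 10 widest were also regions in Zfp592, Cnnm2 (a magnesium transport gene) and Mroh1. Their folds ran from 1.46 to 2. In all, 663 vehicle-only wide regions lay within 1000 bp of an end of 703 tested genes with a mean of at least 1 log2 CPM. The widest of these lay at Zc3h18, Pbx4, Slc27a3, Pxmp4, Btbd7, Kcnt1, Csnk2a2, Vps37d, Rnf135 and Mpped1. In RNA, 3 of these 10 genes passed edgeR's test, all lower with MS275. The full set of 703 did not share that direction: 6.83% were higher and 5.69% lower, at a median log2 fold change of 0.015, against 5.1% higher and 5.89% lower over all tested genes. Zc3h18 had 21.2, 23.1 and 21.9 CPM in MS275 libraries, against 25.4, 27.2 and 27.5 CPM in vehicle libraries (log2 fold change -0.28, SE 0.06, adjusted p 0.0251). Btbd7, a regulator of epithelial branching, stood at -0.40 (SE 0.09, adjusted p 0.0293), and Slc27a3 is given below with the covered starts. Without vehicle replicate 2 the adjusted p was 0.119 for Zc3h18, 0.125 for Btbd7 and 0.166 for Slc27a3.

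Vehicle-only wide regions sat in gene bodies far more often than on starts. On the autosomes with RefSeq start windows, 258 of 11836 (2.18%) covered a listed start and 3.13% lay within 1000 bp of one. Chromosome 18, with 329 of the regions, has no such windows. Windows are also missing for some genes elsewhere. The region in Mroh1 at chr15:76433209-76434947 lay 552676 bp from any listed start, though chr15:76000001-77000000 holds 52 protein-coding genes. Shares at starts may thus be too low, by an amount that was not measured. Of MS275-only wide regions 2.13% covered a start, and of shared wide regions 27.1%. The bodies of protein-coding genes held 62.4% of vehicle-only wide regions away from listed starts, against 57.7% of MS275-only and 46.4% of shared wide regions. A further 15.2% lay between genes within 10 kb of one, 8.78% at 10 to 50 kb and 2.65% farther. The far intergenic share was 6.17% in MS275-only wide regions and 1.71% in shared ones. Vehicle-only regions under 600 bp covered a start in 0.847% of cases, and protein-coding bodies held 60.1% of them.

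**Figure D2:**
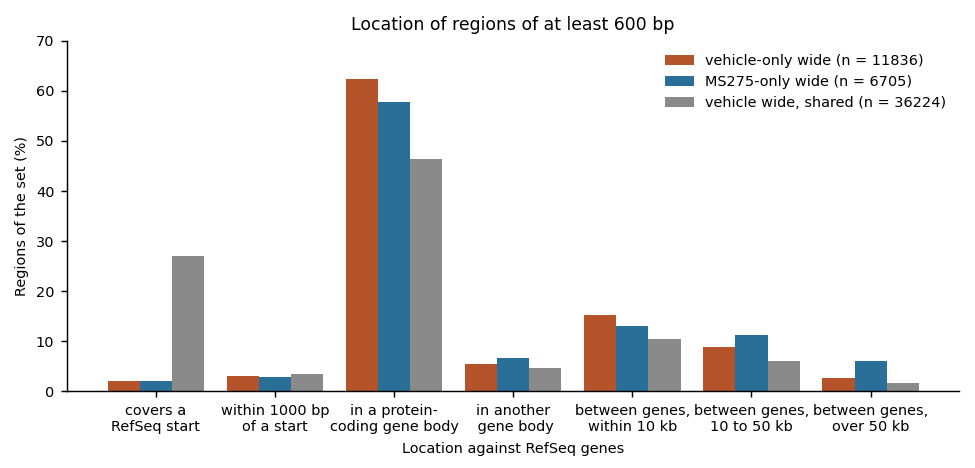
Location of regions of at least 600 bp against RefSeq genes, as the share of each set (%): vehicle-only (n = 11836), MS275-only (n = 6705) and vehicle regions shared with MS275 (n = 36224), on autosomes with start windows. Bars are shares of regions from 1 list each, with no replicates. Listed starts, which lack some genes, were covered by 27.1% of shared wide regions and by 2.18% of vehicle-only ones.

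The excess of vehicle-only over MS275-only wide regions was larger where genes were dense. In 1 Mb around each region, vehicle-only wide regions had a median of 11 protein-coding genes, MS275-only wide regions 8 and shared wide regions 12. Where fewer than 5 genes lay in that window, there were 1.05 vehicle-only wide regions per MS275-only one, and where 30 or more lay there, 2.62. By chromosome this ratio ran from 0.965 on chromosome 3 to 2.63 on chromosome 11. Across the 19 autosomes it went with protein-coding genes per Mb (Pearson's r 0.81, Spearman's rho 0.86), a description only, since all points come from the same 2 lists. The ratio of all wide vehicle regions to all wide MS275 regions followed gene density in the same way (r 0.75, rho 0.85). The share of wide vehicle regions without a partner gave different pictures by window and by chromosome. It was 26.2% in the sparsest and 20.9% in the densest windows, whereas across the autosomes, where it ran from 17.4% to 28.3%, it went weakly up with genes per Mb (r 0.40, rho 0.51). The corresponding MS275 share was 25.9% in the sparsest and 10.2% in the densest windows, and went down across the autosomes (r -0.80, rho -0.68).

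**Figure D3:**
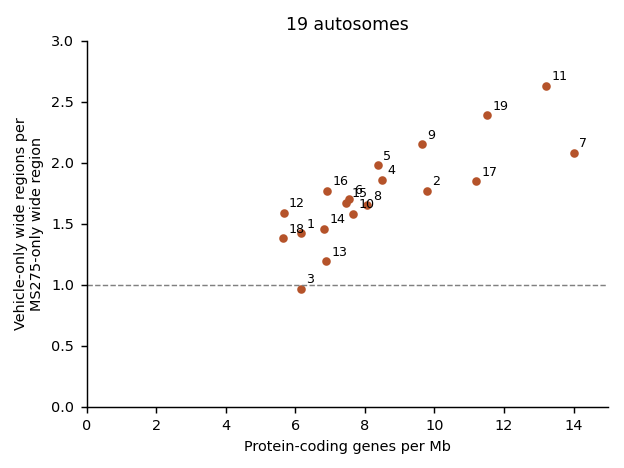
Vehicle-only wide regions per MS275-only wide region (vertical axis) against protein-coding genes per Mb (horizontal axis) on each of the 19 autosomes, labelled by number. The dashed line marks a ratio of 1. Chromosome 3 has the lowest ratio, 0.965, and chromosome 11 the highest, 2.63.

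Vehicle-only wide regions were spread thinly, with local clusters. The median gap from one to the next was 25888 bp, and 25.5% had another within 10 kb, against 11% of MS275-only and 49.2% of shared wide regions. Of 2470 windows of 1 Mb, 1761 held at least 1, with a median of 2 and a mean of 4.93. The window chr4:134000001-135000000 held the most, 32, beside 8 MS275-only and 53 shared wide regions and 30 protein-coding genes. The window chr15:76000001-77000000 held 31, beside 10 MS275-only wide regions.

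Of the 919 autosomal microRNA hairpins in RefSeq, 18 lay under vehicle-only wide regions, 10 under MS275-only and 115 under shared wide regions. MicroRNAs are short RNAs that pair through bases 2 to 8, the seed, with sites in messenger RNAs. Those under vehicle-only wide regions included Mir137 and Mir153, known from neurons, Mir375, known from endocrine cells, and Mir208a, which lies within the cardiac myosin gene Myh6. One mature sequence per hairpin is given with the seed in capitals, the 5p form for Mir375 and the 3p form for Mir137, Mir153 and Mir208a. Mature forms from the other arm of each hairpin, which have other seeds, are not printed.
mmu-miR-137-3p (plus strand, chr3:118433901-118433923): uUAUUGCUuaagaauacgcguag
mmu-miR-153-3p (plus strand, chr12:117250860-117250881): uUGCAUAGucacaaaagugauc
mmu-miR-375-5p (minus strand, chr1:74900696-74900717): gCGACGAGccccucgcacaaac
mmu-miR-208a-3p (minus strand, chr14:54949072-54949093): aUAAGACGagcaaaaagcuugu

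The 4 printed sequences share no seed. The region over Mir137 was 912 bp wide with a fold of 1.8, that over Mir153, within Ptprn2, 653 bp with a fold of 1.8, that over Mir375 776 bp with a fold of 1.75 and that over Mir208a 781 bp with a fold of 1.72. The levels of the mature microRNAs were not analysed here.

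The genes that held the most vehicle-only wide regions were long. Regions were assigned to every RefSeq gene whose body they overlapped, or else to the nearest gene, which gave 7880 genes. A region lay in the body of 5723 genes, 1764 of them held 2 or more and 242 held 5 or more. Csmd1, a complement-related membrane protein gene of 1643 kb, held 41, beside 14 MS275-only and 50 shared wide regions. Camta1, a calmodulin-binding transcription activator gene, held 25 with 8 MS275-only ones, and Rbms3, an RNA-binding protein gene, held 25 with 5. Dpp6, which encodes a partner of Kv4 potassium channels, and Rbfox1, which encodes a neuronal splicing factor, held 22 each, beside 14 MS275-only wide regions each. Erc2 held 21 and no MS275-only wide region, beside 30 shared ones. None of the 15 genes with the most members passed the RNA test, against 11% of all tested genes, and their log2 fold changes ran from -0.21 (Cdh4) to 0.09 (Cacna2d3). Ksr2, a scaffold of the Ras pathway in a shorter gene of 354 kb, had the most per length among them, 3.95 per 100 kb.

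The RNA comparison asked whether transcripts of genes that carry vehicle-only wide regions differed between MS275 and vehicle ganglia. The rule that picks the regions reads only the peak lists. Counts were fitted with edgeR's quasi-likelihood test over all 16819 genes that passed a filter on low counts, and a gene is called at a Benjamini-Hochberg adjusted p under 0.05. Of the 7880 assigned genes 4886 were tested. With MS275, 244 of these were higher (4.99%) and 291 lower (5.96%), against a background over all tested genes of 5.1% higher and 5.89% lower, or 11% in either direction. Their median log2 fold change was 0.001, against 0.002 over all tested genes. Per library, the median deviation of the assigned genes from the vehicle mean was -0.024, 0.008 and 0.002 log2 units in MS275 replicates 1, 2 and 3, and 0.006, 0.001 and -0.008 in vehicle replicates 1, 2 and 3. Both shares lay near the background. The counts depended on which libraries entered, with 535 assigned genes called on all 6. Without vehicle replicates 1, 2 and 3 in turn, 120, 81 and 214 were called. Without MS275 replicates 2 and 3 in turn, 848 and 268 were called, and without MS275 replicate 1 the count lay between 81 and 848. Libraries were also placed on the first principal component, the axis of widest spread over tested genes (46.6% of variance). MS275 replicates 1, 2 and 3 stood at 40.25, 4.66 and 14.13 there, and vehicle replicates 1, 2 and 3 at -21.29, -23.26 and -14.48. MS275 replicate 1 thus lay apart from the other MS275 libraries over all tested genes.

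Genes assigned to the comparison sets had shares in the same range. Of genes assigned to MS275-only wide regions, 5.76% were higher and 4.97% lower, and of those assigned to shared wide regions 5.09% and 6.87%. The assigned genes of the vehicle-only and MS275-only sets overlapped in 2435 genes, 30.9% of the first set and 44.8% of the second. Genes whose body a vehicle-only wide region overlapped were higher in 4.83% and lower in 5.64%, and genes that were only nearest in 5.84% and 7.66%. Genes with 5 or more vehicle-only wide regions in the body, of which 237 were tested and which had a median length of 294 kb, were higher in 2.11% and lower in 2.11%. The 81 tested genes assigned to regions with a -log10 q of at least 10 were higher in 2 cases and lower in 2.

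Expression level moved with assignment. The median level was 4.76 log2 CPM in genes assigned to vehicle-only wide regions and 4.06 in all tested genes, and the share of tested autosomal genes that were assigned ran from 22.4% of those below 1 log2 CPM to 42.3% of those at 7 or more. Between 3 and 5 log2 CPM, 4.42% of assigned genes were higher and 10.3% lower, against 4.67% and 10.6% of all matched autosomal genes. At 7 or more, 7.55% were higher and 1.82% lower, against 8.88% and 1.66%.

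**Figure D4:**
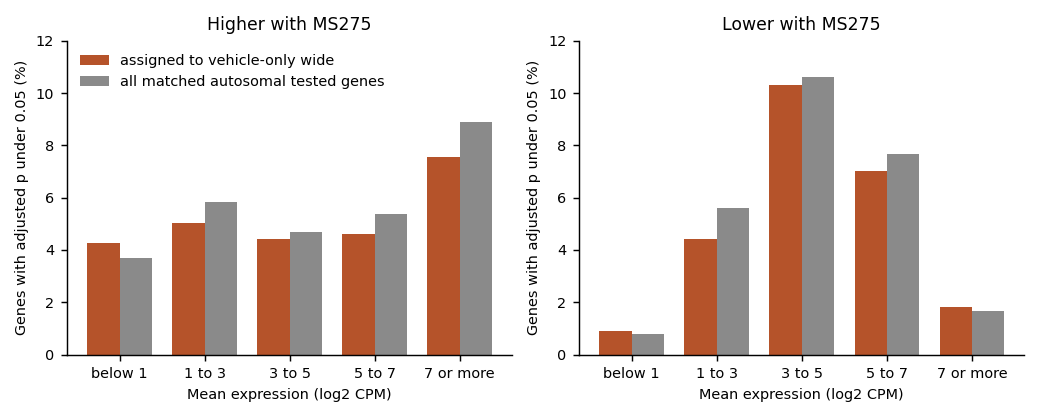
Share of tested genes with adjusted p under 0.05 (%, edgeR) that were higher (left) or lower (right) with MS275, by mean expression in log2 CPM, for genes assigned to vehicle-only wide regions and for all matched autosomal tested genes. Bars are shares of genes, and the number of genes ranges from 658 to 4175 a bar. In both sets the lower calls peak between 3 and 5 log2 CPM.

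A small subset stood apart in level. Genes assigned to a vehicle-only wide region but to no shared wide region numbered 312 among those tested, at a median of 0.47 log2 CPM. Of them 9.62% were higher and 1.28% lower, with a median log2 fold change of 0.165. All matched autosomal genes below 1 log2 CPM were higher in 3.68% and lower in 0.783%, with a median of 0.128. The 312 were not limited to that range. At 1 to 3 log2 CPM, all matched autosomal genes were higher in 5.84% and lower in 5.6%, with a median of 0.008. The differences between these shares were not tested.

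Among 101 tested genes with a start under a vehicle-only wide region, 10 passed the RNA test. The 7 higher and 3 lower calls, 6.93% and 2.97%, stand beside the background of 5.1% and 5.89%, at a median of 2.00 log2 CPM. Of 58 tested genes with a start under an MS275-only wide region, 6.9% were higher and 1.72% lower, at a median of 1.61 log2 CPM. Pvalb had 112, 101 and 116 CPM in MS275 libraries, against 86.3, 92.9 and 91.6 CPM in vehicle libraries. The groups did not overlap, and the log2 fold change was 0.28 (SE 0.06, edgeR adjusted p 0.0192). Grhl3, which encodes an epithelial transcription factor, had 10.8, 9.65 and 12.2 CPM in MS275 libraries, against 8.27, 6.52 and 7.62 CPM in vehicle libraries. It was higher by a log2 fold change of 0.54 (SE 0.12, adjusted p 0.0214). Trpm3 went the other way, at 19.6, 24.4 and 18.5 CPM in MS275 libraries, against 29.7, 27.5 and 27.9 CPM in vehicle libraries. Its log2 fold change was -0.44 (SE 0.10, adjusted p 0.0234), and it holds Mir204 and other annotated genes within its body. Slc27a3, which encodes a fatty acid transport protein, was lower at -0.41 (SE 0.12, adjusted p 0.0495), and Tmem238 was lower at -0.67 (SE 0.17, adjusted p 0.039). Ckm, Casq1 and Ip6k3 (an inositol phosphate kinase gene) were higher with large spread, and 0610031J06Rik (Glmp in RefSeq) at 0.18. Aqp2, the water channel of the kidney, was higher at under 0.5 CPM in every library, where few reads set the value. Each of the 10 lost the call without at least 1 library, with adjusted p values of up to 0.0908 for Pvalb and 0.102 for Trpm3 without vehicle replicate 1 and up to 0.0988 for Grhl3 without vehicle replicate 2. The highest adjusted p of the 10 ranged from 0.0681 for Aqp2 to 0.177 for 0610031J06Rik, both without vehicle replicate 2.

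Of the listed sensory neuron genes with a covered start, Pvalb passed the RNA test, and the nociceptor genes Scn10a and Mrgprd did not. Scn10a had 719, 900 and 822 CPM in MS275 libraries, against 898, 867 and 861 CPM in vehicle libraries. The groups overlapped, and the log2 fold change was -0.11 (SE 0.07, edgeR adjusted p 0.361). Besides the region over its start, Scn10a was assigned 4 weaker ones, with folds of 1.47 to 1.81. Mrgprd, a receptor gene of non-peptidergic nociceptors, had 3 assigned regions, 1 of them over its start, and 151, 176 and 153 CPM in MS275 libraries, against 178, 162 and 164 CPM in vehicle libraries. Other genes with a covered start also missed the threshold. Kcnip2, which encodes a partner of Kv4 channels, had a log2 fold change of -0.10 (SE 0.05, adjusted p 0.189). Agrn, which encodes the synapse organiser agrin, stood at 0.15 (SE 0.07, adjusted p 0.227), and Src, a tyrosine kinase gene, at 0.19 (SE 0.06, adjusted p 0.0659).

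The largest rises among assigned genes with a mean of at least 1 log2 CPM were in genes of striated muscle. The 11 named are Ckmt2, Atp2a1, Ckm, Ttn, Des, Loxl1, C3, Tnfaip2, Casq1, Rsad2 and Rara. Atp2a1, the calcium pump of fast muscle, had 131, 15.8 and 14.4 CPM in MS275 libraries, against 2.21, 0.835 and 9.46 CPM in vehicle libraries (log2 fold change 3.79, SE 1.01, edgeR adjusted p 0.0422). Ckm had 79.1, 10.9 and 12.6 CPM in MS275 libraries, against 1.77, 0.819 and 7.44 CPM in vehicle libraries. Ttn, the giant spring protein of the sarcomere, had 16.8, 2.86 and 4.03 CPM in MS275 libraries, against 0.7, 0.491 and 2.5 CPM in vehicle libraries. For all 3, MS275 replicate 1 stood far above the other 2 MS275 libraries. The 10 skeletal muscle markers, 8 of which were called higher, none lower and none at 0 in every library, summed to 701, 87.3 and 101 CPM in MS275 libraries and 14.3, 7.16 and 59.3 CPM in vehicle libraries. The part of muscle RNA in these rises was not tested. Without MS275 replicate 1, the calls of Atp2a1, Ckm, Ttn and Ckmt2 were lost, and the log2 fold changes of Atp2a1 and Ckm were then as low as 1.95 and 1.90. Without vehicle replicate 1, the adjusted p was 0.161 for Atp2a1, 0.159 for Ckm and 0.167 for Ttn. Des (muscle desmin), Casq1 and Ckmt2 (a mitochondrial creatine kinase gene) were likewise lost without vehicle replicate 2.

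The 5 of these 11 genes that kept the call whichever of the 6 libraries was left out were not muscle genes. Loxl1, which encodes a lysyl oxidase that cross-links elastin, had 14.7, 9.57 and 9.76 CPM in MS275 libraries, against 3.22, 4.26 and 3.99 CPM in vehicle libraries (log2 fold change 1.57, SE 0.18, edgeR adjusted p 0.00241). Its 2 regions, of 605 and 728 bp, lay in the gene body with folds of 1.4 and 1.71. C3, the central complement component, had 27.7, 17.6 and 16.8 CPM in MS275 libraries, against 7.52, 6.72 and 8.81 CPM in vehicle libraries (log2 fold change 1.44, SE 0.19, adjusted p 0.00357). Rsad2, an interferon-induced antiviral gene, had 26.2, 21.9 and 18 CPM in MS275 libraries, against 8.29, 8.53 and 12.8 CPM in vehicle libraries (1.17, SE 0.18, adjusted p 0.00678). Tnfaip2 and Rara, the retinoic acid receptor alpha gene, were higher at 1.31 and 1.10. In each of the 5 the lowest MS275 library lay above the highest vehicle library, as in 15.9% of all tested genes, and the choice of called genes favours such separation. The regions at Rara overlapped the gene, 156 and 750 bp from an MS275 region and 9951 and 9655 bp from the nearest listed start.

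The 12 named assigned genes that were lower with MS275 are Zfp568, Runx2, Slc25a18, Tfap4, Trim65, Jag1, Setd1b, Usp42, Kcnk18, Cbx8, Phf17 and Fjx1. Jag1, a ligand of Notch receptors, had 13.3, 13.5 and 13.3 CPM in MS275 libraries, against 22, 23.8 and 20 CPM in vehicle libraries (log2 fold change -0.72, SE 0.08, edgeR adjusted p 0.0019). Setd1b, a methyltransferase for lysine 4 of histone H3, had 14.2, 17 and 16.4 CPM in MS275 libraries, against 25.4, 26.8 and 25.9 CPM in vehicle libraries (-0.71, SE 0.08, adjusted p 0.0019). Kcnk18, which encodes the potassium channel TRESK of sensory neurons, had 6.21, 7.99 and 7.36 CPM in MS275 libraries, against 12.4, 10.7 and 12.1 CPM in vehicle libraries (-0.71, SE 0.11, adjusted p 0.00726). In all 12 every MS275 library lay below every vehicle library, as in 17.9% of all tested genes, and here too the choice of called genes favours separation. The Kcnk18 regions, 630 and 1024 bp wide with folds of 1.56 and 1.64, lay in the gene body, 7073 and 8049 bp from the nearest start.

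The remaining lower genes had changes of similar size. Zfp568, a zinc finger repressor gene, and Runx2, a transcription factor gene known from bone, each had a log2 fold change of -0.84 (SE 0.11). Cbx8, a Polycomb protein gene, stood at -0.70, Usp42, a deubiquitinase gene, at -0.71 and Phf17 (Jade1 in RefSeq, a histone acetyltransferase partner) at -0.69. Of the 12, 8 kept the call whichever library was left out. Slc25a18, Tfap4, Trim65 and Fjx1 lost it without vehicle replicate 2, and the highest adjusted p among these was 0.131, for Tfap4 without vehicle replicate 1. None of these 12 had a listed start under a vehicle-only wide region, and 4 had one under a shared wide region. Some, Setd1b and Fjx1 among them, have no listed start, so theirs could not be placed. A region 5877 bp from Fjx1 lay 45402 bp from any listed start. Among the 11 higher genes, 2 had a listed start under a vehicle-only and 3 under a shared wide region, and Loxl1 had no listed start. Atp2a1 overlaps Rabep2 and Runx2 overlaps Supt3 in the annotation, so some of their reads may belong to the neighbour.

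**Figure D5:**
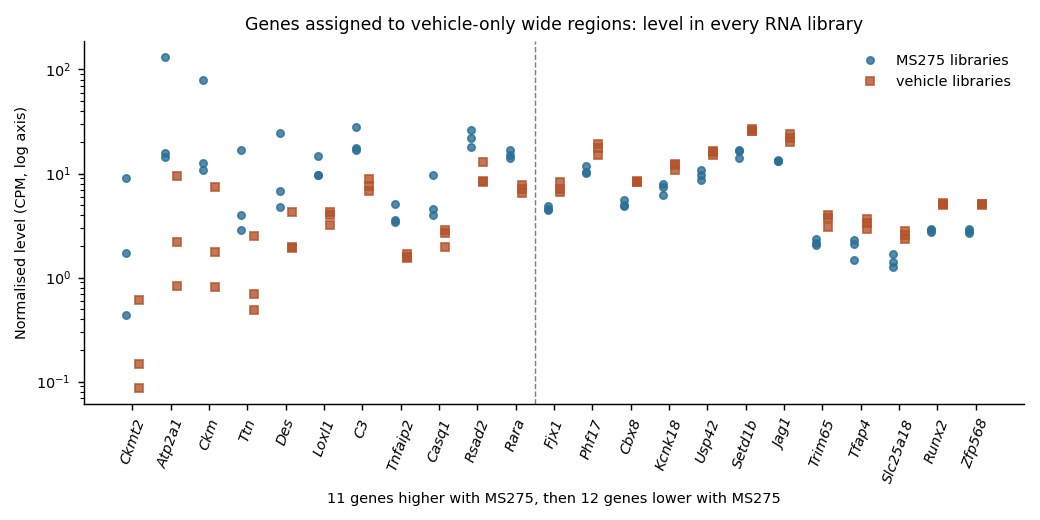
Level of the 11 higher and 12 lower named genes assigned to vehicle-only wide regions in every RNA library (CPM, log axis), with 3 MS275 libraries (circles) left of 3 vehicle libraries (squares) for each gene. Ckmt2 is the only one in which the groups overlap. Atp2a1 and Ckm show 1 MS275 library far above the rest, at 131 and 79.1 CPM.

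By role, the lists of long neuronal genes and neuronal ion channels were assigned the most vehicle-only wide regions. The counts of calls in each list stand beside 5.1% higher and 5.89% lower over all tested genes, and no list was tested against these shares. Among all matched autosomal genes 20.6% were assigned at least 1, and among tested ones 31.8%. Of 30 genes for synaptic adhesion and other very long neuronal genes, 24 were assigned 207 regions, none was higher and 2 were lower, Opcml at -0.21 (SE 0.05) and Magi2 at -0.23 (SE 0.06). Of 32 neuronal ion channel genes in the files, 22 were assigned 97 regions, none was higher and 3 were lower. These were Kcnk18, the calcium channel gene Cacna1b at -0.27 (SE 0.06, edgeR adjusted p 0.0267) and Cacna1c at -0.25 (SE 0.07, adjusted p 0.0466). Cacna1c alone was assigned 13. Without vehicle replicate 2 the adjusted p was 0.112 for Cacna1b, 0.182 for Cacna1c and 0.14 for Magi2, and without vehicle replicate 1 it was 0.132 for Opcml. These counts were not adjusted for gene length. MS275-only wide regions were assigned to 25 of the 30 long genes and to 22 of the 32 ion channel genes. Shared wide regions were assigned to 30 genes of each of these lists.

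Lists of guidance and sensory identity followed. Of 30 axon guidance genes, 17 were assigned 57 regions, 2 were higher and 1 lower. Sema4d, a transmembrane semaphorin gene, had 69.4, 74 and 77.8 CPM in MS275 libraries, against 59.7, 53.8 and 58.4 CPM in vehicle libraries (log2 fold change 0.36, SE 0.06, edgeR adjusted p 0.00734). Sema3f was higher at 0.29 and Neo1, a netrin receptor gene, lower at -0.20, with adjusted p of 0.163 and 0.187 without vehicle replicate 1. Of 22 nociceptor and thermosensor genes, 10 were assigned 22 regions, and Gfra2, a receptor gene for neurturin, was higher at 0.24 (SE 0.05, adjusted p 0.0246). Its call was lost without MS275 replicate 3 or any vehicle library, up to an adjusted p of 0.114. Over the full list of 22, 6 genes were called higher and none lower. The full list summed to 6207, 6663 and 6359 CPM in MS275 libraries and 5957, 5960 and 5938 CPM in vehicle libraries. The median log2 fold change was 0.04 in its assigned genes and 0.16 in the full list. Of 18 pan-sensory genes, 11 were assigned 25 regions, and Elavl4, an RNA-binding protein gene, was higher at 0.19 (SE 0.04, adjusted p 0.0179, and 0.0942 without vehicle replicate 2). MS275-only wide regions were assigned to 16 of the guidance, 9 of the nociceptor and thermosensor and 6 of the pan-sensory genes.

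The regeneration and early response lists were assigned regions at 25% and 20% of their genes, and the deacetylase and co-repressor list at 45%. Of 28 regeneration-associated genes in the files, 7 were assigned 12 regions, and Crebbp, a histone acetyltransferase gene, was lower with 14.2, 14.3 and 15 CPM in MS275 libraries, against 22.4, 21 and 18.4 CPM in vehicle libraries (log2 fold change -0.51, SE 0.08, edgeR adjusted p 0.00783). Of 15 immediate early and AP-1 genes, 3 were assigned 4 regions, and all 15 were assigned a shared wide region. No gene of the list was assigned an MS275-only wide region, as was also so in the macrophage, neutrophil and lymphocyte lists. Fosl2, an AP-1 subunit gene with 2 vehicle-only wide regions, was lower at -0.64 (SE 0.14, adjusted p 0.0237). Its adjusted p reached 0.109 without vehicle replicate 2. Of 20 class I deacetylase and co-repressor genes, 9 were assigned 13 regions, and Mta1, a subunit gene of the NuRD complex, was higher at 0.20 (SE 0.05, adjusted p 0.0354; 0.139 without vehicle replicate 1). Hdac1, with 2 regions, stood at 0.02 (SE 0.06, adjusted p 0.835).

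Glial and vascular markers were assigned regions at 31.2% to 60% of their lists. Among 10 mural cell genes 6 were assigned 9 regions and 3 were higher, with Pdgfrb, the receptor gene that marks pericytes, at 40.6, 40.2 and 38 CPM in MS275 libraries, against 26, 28.9 and 26.9 CPM in vehicle libraries (log2 fold change 0.54, SE 0.06, edgeR adjusted p 0.0019). The other two were Des and Cspg4, a proteoglycan gene, at 0.58 (adjusted p 0.0129, and 0.0717 without vehicle replicate 2). Among 16 endothelial genes 6 were assigned 8 regions, and Cldn5, a tight junction gene, at 0.54 and Pecam1, an adhesion gene, at 0.41 were higher, with adjusted p of 0.0871 and 0.123 without vehicle replicate 2. The full mural list summed to 421, 363 and 352 CPM in MS275 libraries and 291, 272 and 318 CPM in vehicle libraries, with 4 of 10 genes higher. The endothelial list summed to 295, 264 and 276 CPM in MS275 libraries and 212, 225 and 234 CPM in vehicle libraries, with 7 of 16 higher. The part of vessel cells in these calls was not tested. Of 18 Schwann cell genes 9 were assigned 12 regions, and Dhh, the desert hedgehog gene, was lower at -0.28 (adjusted p 0.0307; 0.136 without vehicle replicate 1). Of 16 satellite glia genes 5 were assigned 5, and Slc1a3, a glutamate transporter gene, was higher at 0.26 (adjusted p 0.047, and 0.15 without vehicle replicate 3). Over the full satellite glia list of 16, 3 genes were called higher and 4 lower.

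The remaining lists were other cell types. Of 16 large-diameter neuron genes 6 were assigned 21 regions, and Pvalb was the only one of these called. MS275-only wide regions were likewise assigned to 6 of the 16. Of 14 fibroblast genes 5 were assigned 10 regions, of 17 macrophage genes in the files 4 were assigned 4, of 13 neutrophil genes 2 were assigned 2, and of 10 lymphocyte genes 1 was assigned 1, with none of these called in edgeR's test. Of 6 central nervous system genes 2 were assigned 2 regions, and neither was called. Of 10 skeletal muscle genes 3 were assigned 6 regions, and these, Ckm, Ttn and Atp2a1, were all called higher. Of 6 adipocyte genes 2 were assigned 2, and Cfd, the complement factor D gene, was higher at 0.88 (SE 0.25, adjusted p 0.0494; 0.18 without vehicle replicate 2).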

How the data were processed

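RNA and open chromatin were measured in injured ganglia under MS275 or vehicle, with 3 libraries per group and assay. The regions and gene lists were chosen with earlier results of these data known. RNA files hold raw read counts per gene symbol, deposited by the authors. The submitters' processing notes name build mm10 and list, without roles, FastQC 0.10.1, R 3.5.0, STAR 2.7.0, limma 3.38.3 and edgeR 3.24.3. Neither the program that counted reads nor its use of strand is stated there, so reads of overlapping genes are uncertain. Rows naming no gene (18.89% to 20.56% of reads) were left out. ATAC files are the authors' filtered peak lists of combined replicates, with 277369 vehicle and 246602 MS275 entries. Their deposited columns hold a score, a fold enrichment ratio, the -log10 of p and q, and a summit offset. No source used here names the peak caller, and ATAC depth is unknown.

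Overlapping entries were merged within each list, giving 177906 vehicle and 161788 MS275 regions, and compared with bedtools 2.31.1. A merged region takes the highest fold and -log10 q of its entries. Genes and start windows came from RefSeq tables of GRCm38.p6, and 15940 of 16819 tested genes (94.8%) matched, 1007 through synonyms. Shares at starts are over the autosomes that have start windows. Some genes there have no window, so their starts were not looked up. RNA counts went into edgeR 4.0.16 under R 4.3.3 (TMM, filterByExpr, quasi-likelihood test, 2-sided, treatment only, Benjamini-Hochberg adjusted p under 0.05), with 16819 of 44345 genes tested. SE is the log2 fold change over the root of the F statistic. The edgeR fit was tested on simulated counts. No pair of libraries of a group agreed within sampling noise. The series text calls the triplicates biological.

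Described were the 10 widest members, the 10 highest by fold and by -log10 q, genes with the most members, up to 12 assigned genes higher and 12 lower (called, and at a mean of 1 log2 CPM or more, provisional symbols passed over, 1 result not reported here), and assigned genes in 20 lists. Genes at covered starts and the microRNAs were chosen after their values were seen. Alternatives covered normalisation, filter, DESeq2 1.42.0, limma 3.58.1 voom, a replicate block, each library left out, the thresholds and the assignment of genes.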

Additional observations from a re-analysis of the deposited data

How the results depend on the processing

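The number of vehicle-only wide regions depends on the width, overlap and strength asked for. It was 36039, 3759 and 1074 at minimum widths of 400, 800 and 1000 bp, against 12165 at 600 bp. It was 18895 when regions sharing under 50% of their length with MS275 regions counted as vehicle-only, 7272 with entries of -log10 q of at least 5 in both lists, and 1478 with that limit on the vehicle list only. It stayed within 1.5 times with a required gap of 500 bp (9948) and with lists of equal size (11518). Assigned genes called in RNA numbered 986, 240 and 86 at the 3 widths, 97 with the limit on the vehicle list only and 102 for genes with an end within 1000 bp of a region, where the median log2 fold change was 0.026. At an adjusted p under 0.01, 350 genes in all and 110 assigned genes were called. With each library left out in turn, 261 to 2763 genes in all and 81 to 848 assigned genes were called, fewest without vehicle replicate 2 and most without MS275 replicate 2, and the median of assigned genes lay between -0.003 and 0.010. RLE factors, no filter, DESeq2 and voom kept both counts within 1.5 times (1775 to 2397 genes in all, 521 to 715 assigned). Replicate numbers did not pair the samples (correlations of deviations of 0.02, 0.11 and -0.06 for the same number). With the replicate number as a block, 2088 genes in all and 621 assigned genes were called. Of 52 called genes named here none changed direction under any of these fits, and 16 kept the call whichever library was left out. Calls were lost for 4 under DESeq2 (Aqp2, Atp2a1, Tmem238, Ttn), for 8 under voom (Atp2a1, Cfd, Ckm, Ckmt2, Des, Ip6k3, Sema3f, Ttn), for 5 with the block, for 3 with no filter and for 1 with RLE factors. Without a replicate of the peak lists, no error can be given for any count of regions.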
